A study of Mus musculus with 24 samples.

Results

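The transcriptome of the mouse heart at 24 h after a sham coronary operation was compared with that at 45 min after the same operation. The comparison used 16 of the 24 mice of the series, 8 killed at 45 min and 8 killed at 24 h, chosen by the time written in their labels; the 8 mice killed at 0 min entered the model fit and give the level from which the early response started. All mice were adult males, of the strain C57BL/6 by the labels and C57BL/6J by the study's methods, and no transgene is named. Every one of them, the 0 min group included, was anesthetized with pentobarbital, received buprenorphine as an analgesic, was ventilated, had the left chest opened and had a suture passed around the left anterior descending artery without tying it. The suture was taken out at once in the 0 min group and after 45 min in the others, and the 24 h group had the chest closed and stayed alive until the next day. None of the groups was an unoperated heart, so the 0 min level already follows anesthesia and the opening of the chest. The left ventricle was dissected and its polyadenylated RNA was sequenced, with 1 mouse for each library.

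Surgery acts on the heart in waves. Immediate early genes are transcribed within minutes from factors already present in the cell, and most of their messenger RNAs are short-lived. Acute phase genes, chemokines and tissue repair genes follow, and blood-borne neutrophils and then monocytes enter a wounded tissue over hours. In RNA from whole ventricle, fewer cells of a type and less RNA per cell cannot be told apart.

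The libraries held between 9887957 and 14091629 counts. At 45 min, samples 6, 7 and 8 stood apart, with 12972 to 14353 transcripts detected by at least 1 count against 17114 to 18109 in the other 45 min samples. At 24 h, sample 4 had 15753 transcripts detected and the others 17011 to 18865. The mean over 8 mice was 16162 ± 2100 (SD) at 45 min and 17770 ± 1008 (SD) at 24 h, a difference of 1609 transcripts that did not pass the threshold in an exact two-sided permutation test (p = 0.0775). Transcripts with at least 10 counts were higher by 666 at 24 h (p = 0.0236, exact permutation test). The counts below therefore stand beside those without these 4 libraries. Muscle markers were present throughout, here summed over 8 genes of striated muscle, including cardiac actin (Actc1) and cardiac myosin-binding protein C (Mybpc3). Their summed level lay between 17823 and 29395 CPM (counts scaled to a common library size) at 45 min, with a mean of 21775. At 24 h it lay between 6953 and 12032 CPM, with a mean of 9770. The 2 groups did not overlap, and the part of this lower level in the other results was not tested. Actc1 made up most of the sum and most of its fall, with means of 16548 CPM at 45 min and 5717 CPM at 24 h. The 8 genes include Casq1, which was lower at 24 h than at 45 min, and Tpm1, whose transcript on the list was higher. All 8 were picked among those that the study's own gene table names, which was chosen on these samples.

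Of 63758 transcripts listed, 8940 had enough counts to be tested, and 813 of them (9.09%) differed between 24 h and 45 min at an adjusted p of 0.05 (quasi-likelihood test of edgeR, adjusted after Benjamini and Hochberg). At 24 h, 410 (4.59%) were higher and 403 (4.51%) were lower. The median log2 fold change was 0.94 among the higher and -0.89 among the lower transcripts, and 187 higher and 145 lower transcripts changed by at least 1 on the log2 scale. The median over all tested transcripts was 0.03. With a covariate for how many transcripts each library detected, 516 were higher and 444 lower, and 301 and 242 of these were also called without it. Without 45 min samples 6, 7 and 8 and 24 h sample 4, 353 were higher and 300 lower, of which 269 and 216 were shared with the calls from all samples. Leaving out 24 h sample 4 alone gave 568 higher and 1100 lower transcripts.

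Gene symbols were at hand for 1096 of the tested transcripts, and these are transcripts that the study itself had picked as changing with time in these same samples. Among them 367 (33.5%) were higher and 343 (31.3%) lower at 24 h. Counts of named genes are read against these shares, not against those of all transcripts, and they are no independent evidence of a direction. By comparison, 65 transcripts (0.727%) differed between 45 min and 0 min and 687 (7.68%) between 24 h and 0 min. The 3 comparisons share samples, so their values are given side by side only. The 8 samples of 1 time did not overlap the 8 of the other in 122 transcripts past the threshold with at least 10 counts (1.36%), 59 higher and 63 lower at 24 h. The 12 largest falls and the 12 largest rises with a symbol among these are described first. All of them passed the threshold with the covariate and without the 4 libraries, which their choice by size and separation made likely in advance. The only transcripts without a symbol in this class, uc007uhr.2 and uc008xao.2, were higher at 24 h, with log2 fold changes of 0.82 and 0.75, and 0 were lower. At 45 min against 0 min their log2 fold changes were -0.72 and -0.66, which did not pass the threshold.

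Fosb, which encodes a partner of Jun in the AP-1 transcription factor, had the largest fall. It lies at chr7:19302696-19310051 on the minus strand (mm10). Its level was 7.47 CPM at the lowest, 48.1 at the median and 124 at the highest in the 45 min hearts, and 0.519, 1.19 and 2.16 in the 24 h hearts. The log2 fold change was -5.33 ± 0.50 (SE, edgeR's quasi-likelihood test, adjusted p = 8.36e-08). The mean at 0 min was 2.58 CPM, so that Fosb was high in the 45 min hearts alone, where it stood 4.31 log2 units above 0 min (adjusted p = 5.98e-06, edgeR).

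Egr1, a zinc finger factor that responds to growth factors and stretch, ranged from 62.1 to 395 CPM at 45 min, with a median of 178. At 24 h it ranged from 15.2 to 43.5 CPM, with a median of 28, a log2 fold change of -2.81 ± 0.44 (SE, edgeR, adjusted p = 0.000125). All 24 h hearts lay under the lowest 45 min heart. Here the 0 min hearts already covered a wide range, with a mean of 80.3 CPM. The 45 min level differed from it by 1.33 log2 units, which did not pass the threshold (adjusted p = 0.230, edgeR), and the 24 h level was lower than that of 0 min by 1.48 log2 units (adjusted p = 0.0265, edgeR).

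Chac1, which degrades glutathione and is induced by the amino acid and unfolded protein stress response, had levels of 8.63, 15.7 and 24.7 CPM (lowest, median and highest) at 45 min and 3.32, 4.82 and 7.26 CPM at 24 h. The log2 fold change was -1.76 ± 0.24 (SE, edgeR, adjusted p = 2e-05). At 0 min the mean was 5.85 CPM, against which 45 min was higher by 1.48 log2 units and 24 h differed by -0.28, which did not pass the threshold.

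Cxcl1, a chemokine that attracts neutrophils through the receptor Cxcr2, lies at chr5:90891241-90893115 on the plus strand. It ranged from 13.2 to 44.1 CPM at 45 min, with a median of 19.7, and from 2.19 to 11.3 CPM at 24 h, with a median of 6.76. The log2 fold change was -1.71 ± 0.30 (SE, edgeR, adjusted p = 0.000402). Unlike Fosb and Chac1, Cxcl1 remained above its 0 min mean of 1.73 CPM at 24 h, by 2.04 log2 units (adjusted p = 0.000123, edgeR). At 45 min it stood 3.75 log2 units above 0 min. No time between 45 min and 24 h was sampled, so the time of its highest level is not known.

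Among the 12 genes with the largest falls, Rpl3l and Cxcl9 also had 45 min means above those of 0 min, and like that of Egr1 these differences did not pass the threshold. Rpl3l, a ribosomal protein restricted to striated muscle, had a median of 3.16 CPM at 45 min and 1.02 CPM at 24 h, and a log2 fold change of -1.83 ± 0.29 (SE, edgeR, adjusted p = 0.000151). The groups of Rpl3l were adjacent, 1.79 CPM in the lowest 45 min heart and 1.78 CPM in the highest 24 h heart. Cxcl9, an interferon-gamma-induced chemokine for T cells, ranged from 5.62 to 17.4 CPM at 45 min and from 2.2 to 5.01 CPM at 24 h. Its log2 fold change was -2.02 ± 0.23 (SE, edgeR, adjusted p = 1.82e-06), and its 24 h level lay 1.55 log2 units below that of 0 min (adjusted p = 4.42e-05, edgeR).

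The remaining 6 genes of the 12 did not belong to the early response by these values. Their log2 fold changes at 45 min against 0 min ran from -0.31 (Lrrc55) to 0.15 (2310020H05Rik), and all 6 were lower at 24 h than at either earlier time. Apln encodes apelin, a peptide that dilates vessels and raises contractility, and lies at chrX:48025146-48034853. It ranged from 24.2 to 41.2 CPM at 45 min and from 3.39 to 18.2 CPM at 24 h, where the median was 6.77 CPM. The log2 fold change was -1.85 ± 0.23 (SE, edgeR, adjusted p = 8.06e-06), and the 0 min mean of 33.5 CPM was close to that of 45 min, 30.0 ± 5.22 (SD, n = 8).

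Klhdc8a, a kelch domain protein, fell from a median of 53.4 CPM (range 37.8 to 103) to 13.9 CPM (range 10.3 to 35.1), with a log2 fold change of -1.75 ± 0.25 (SE, edgeR, adjusted p = 3.55e-05). Sample 4 gave the highest of the 24 h values. Lrrc55, an auxiliary subunit of calcium-activated potassium channels, fell from a median of 1.96 CPM to 0.445 CPM, a log2 fold change of -2.03 ± 0.25 (adjusted p = 4.58e-06, edgeR). Fat3, an atypical cadherin, fell from a median of 0.938 CPM to 0.169 CPM, a log2 fold change of -2.14 ± 0.42 (adjusted p = 0.00144, edgeR). Fat3 rested on few reads, with means of 12 counts a heart at 45 min and 3.25 at 24 h. Before scaling, its counts overlapped, down to 5 in a 45 min heart and up to 7 in a 24 h heart. The gene models Gm28979 and 2310020H05Rik fell by 2.77 and 1.79 on the log2 scale. Gm28979 ranged from 2.86 to 6.38 CPM at 45 min and from 0.248 to 1.05 CPM at 24 h.

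**Figure D1:**
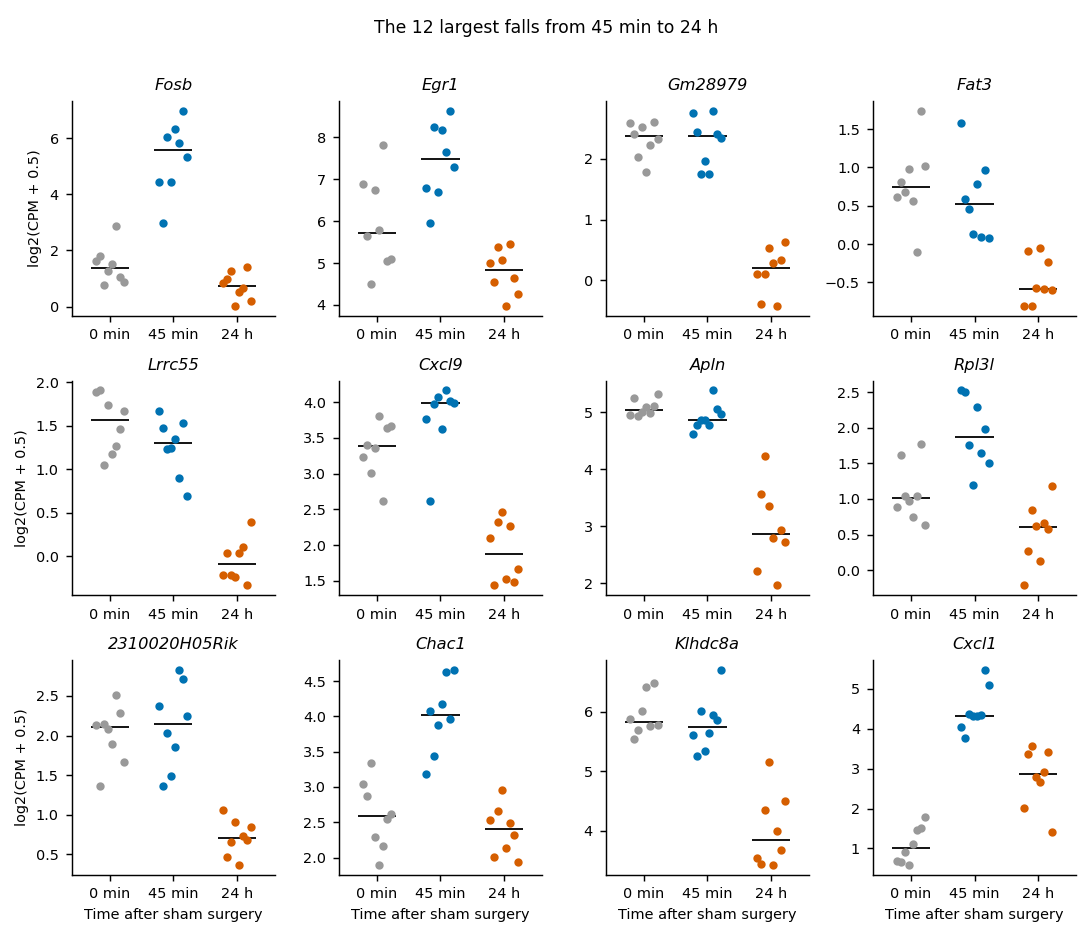
Levels of the 12 genes with the largest falls as log2(CPM + 0.5) in each mouse (points, 8 a time) against time after sham surgery, with the median as a line. Fosb, Egr1, Chac1 and Cxcl1 had their highest median at 45 min, whereas Apln, Klhdc8a, Lrrc55, Fat3, Gm28979 and 2310020H05Rik were near their 0 min level at 45 min and lower at 24 h.

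The promoters of Cxcl1 and Fosb are printed because both genes were high at 45 min and low at 24 h and because the windows hold a match to a stress-responsive motif. Each is the 250 bases before the transcription start in RefSeq (GRCm38.p6), 5′ to 3′, with matches to the NF-kB motif in capitals. The Cxcl1 window is chr5:90890995-90891244, plus strand, and the Fosb window is chr7:19310046-19310295, minus strand.
Cxcl1: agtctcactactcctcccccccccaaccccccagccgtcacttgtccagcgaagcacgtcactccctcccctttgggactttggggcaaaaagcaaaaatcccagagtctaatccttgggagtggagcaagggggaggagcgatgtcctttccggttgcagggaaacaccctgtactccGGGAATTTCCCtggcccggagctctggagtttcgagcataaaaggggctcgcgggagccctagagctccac
Fosb: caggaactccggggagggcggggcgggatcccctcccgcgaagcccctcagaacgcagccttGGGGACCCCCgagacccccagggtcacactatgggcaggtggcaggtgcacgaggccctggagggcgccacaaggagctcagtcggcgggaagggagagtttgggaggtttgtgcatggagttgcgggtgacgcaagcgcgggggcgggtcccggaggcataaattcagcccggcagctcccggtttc
In Cxcl1 the motif matched at 2 overlapping positions, 71 and 70 bases before the start, on either strand, and in Fosb 188 bases before it. Of the 32851 promoter windows of this length in RefSeq, 5.93% held an NF-kB match. The largest falls had 12 promoter windows of 11 genes, 2 of them of Rpl3l, and the Egr1 promoter was not searched. Among these windows, 2 held an NF-kB match, 1 (Gm28979) held a STAT match (TTCNNNGAA, 7.02% of all windows), and 0 held the AP-1 motif (TGANTCA, 6.75%), the cAMP response element (TGACGTCA, 1.55%) or the serum response element (1.47%). Both strands were searched. A match is a description of the letters in the window.

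Arg1 had the largest rise. It encodes arginase 1, which turns arginine into ornithine and urea and marks monocyte-derived macrophages in wounds, and it lies at chr10:24915221-24927484 on the minus strand. In all 8 hearts at 45 min together only 13 counts were found, 9 of them in 1 heart, whereas the 24 h hearts held 8030. The level at 24 h was 8.82 CPM at the lowest, 71.7 at the median and 158 at the highest, and the log2 fold change was 8.93 ± 0.73 (SE, edgeR's quasi-likelihood test, adjusted p = 1.14e-08). The mean at 0 min was 0.178 CPM, so that Arg1 was near 0 at both early times. Samples 8 and 1 gave the lowest 24 h values, 8.82 and 13.5 CPM.

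Chil3, a chitinase-like protein of monocytes and macrophages, had 14 counts in the 45 min hearts together and from 2.67 to 48.5 CPM at 24 h, with a median of 17.6. Its log2 fold change was 6.81 ± 0.63 (SE, edgeR, adjusted p = 8.31e-08). Samples 8 and 1 were again the lowest. Ccr2 (transcript uc012hdh.1), the receptor by which monocytes follow Ccl2 into tissue, ranged from 0.417 to 3.07 CPM at 45 min and from 3.98 to 27.3 CPM at 24 h, a log2 fold change of 3.37 ± 0.43 (adjusted p = 8.87e-06, edgeR). Itgax, the integrin CD11c of dendritic cells and macrophages, ranged from 0.208 to 1.02 CPM and from 1.09 to 12 CPM, a log2 fold change of 2.41 ± 0.41 (adjusted p = 0.000283, edgeR). Its groups were adjacent, since 24 h samples 1 and 8 lay just above the highest 45 min heart.

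Lcn2, a secreted protein that binds bacterial siderophores, and Serpina3n, an acute phase protease inhibitor, come next by size. Lcn2 ranged from 3.13 to 12.5 CPM at 45 min and from 89.6 to 523 CPM at 24 h, where the median was 330 CPM. The log2 fold change was 5.63 ± 0.44 (SE, edgeR, adjusted p = 9.64e-09). Serpina3n ranged from 9.92 to 29.6 CPM and from 176 to 616 CPM, with a log2 fold change of 4.26 ± 0.38 (SE, edgeR, adjusted p = 5.42e-08). In both genes sample 8 gave the lowest value at 24 h. Both had 45 min means above those of 0 min (6.37 against 2.32 CPM and 22.3 against 11.2 CPM) by differences that did not pass the threshold.

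Among the chemokines, Cxcl5, which attracts neutrophils, and Ppbp, a platelet chemokine, were among the 12. Cxcl5 ranged from 0.224 to 1.77 CPM at 45 min and from 4.21 to 35 CPM at 24 h, a log2 fold change of 4.02 ± 0.44 (SE, edgeR, adjusted p = 1.3e-06). It had already been higher at 45 min than at 0 min, by 2.82 log2 units (adjusted p = 0.027, edgeR). Ppbp ranged from 0.112 to 1.76 CPM and from 1.88 to 16 CPM, a log2 fold change of 3.17 ± 0.55 (SE, edgeR, adjusted p = 0.000391). Ppbp was adjacent at its edges as well, 1.76 CPM in the highest 45 min heart and 1.88 CPM in 24 h sample 1.

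Of the other rises, Mmp3, a matrix metalloproteinase, ranged from 1.19 to 4.94 CPM at 45 min and from 16.5 to 37.5 CPM at 24 h, a log2 fold change of 3.10 ± 0.30 (SE, edgeR, adjusted p = 1.46e-07). Prg4 encodes lubricin, a lubricating proteoglycan made by joint and serosal surfaces, and rose from a median of 5.32 CPM to 43.3 CPM, a log2 fold change of 2.82 ± 0.29 (adjusted p = 3.8e-07, edgeR). Cdo1, which oxidizes cysteine, rose from a median of 0.616 CPM to 5.03 CPM, a log2 fold change of 2.94 ± 0.33 (adjusted p = 1.4e-06, edgeR). Actg1 (transcript uc057bav.1) was of another kind, with means of 1.61, 0.252 and 1.82 CPM at the 3 times in order. Its 24 h value stood 2.76 ± 0.44 log2 units above 45 min (adjusted p = 0.000154, edgeR), and it is 1 of several transcripts of cytoplasmic gamma actin, whose reads can be split between near-identical copies.

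**Figure D2:**
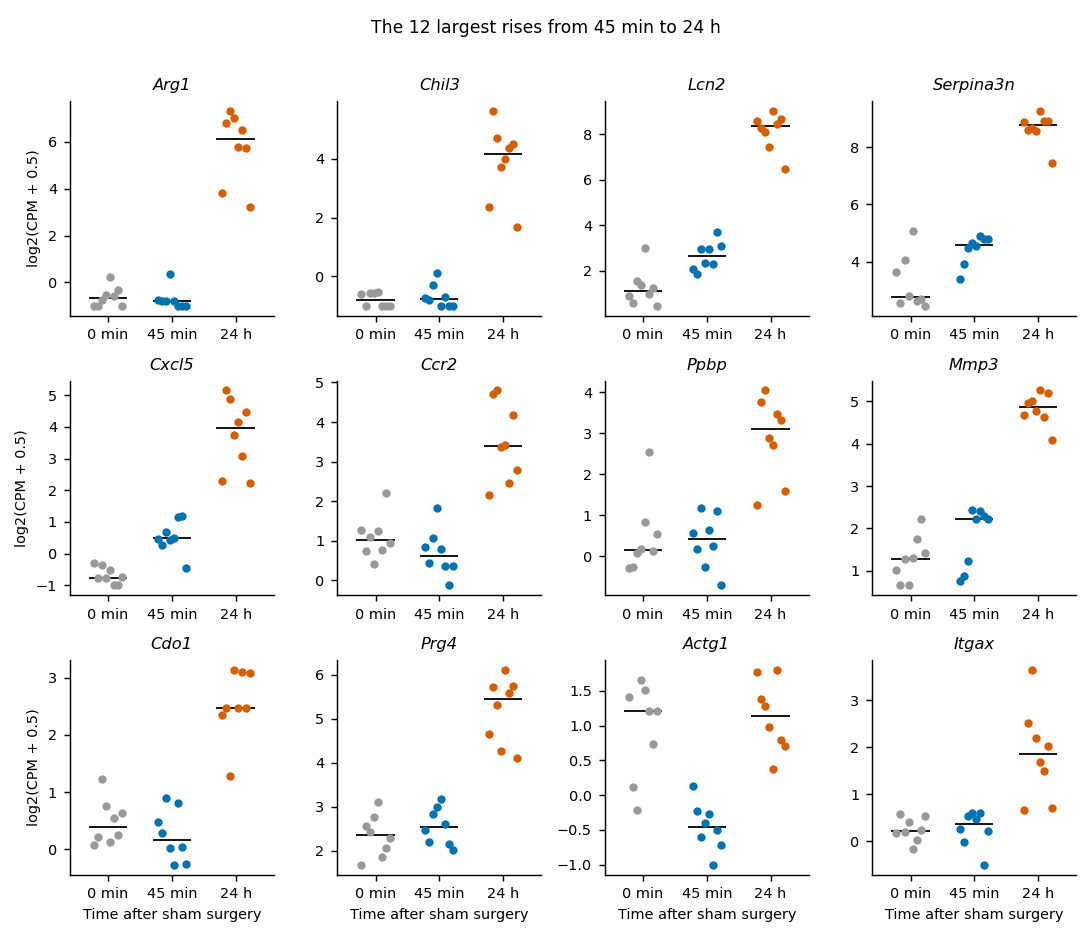
Levels of the 12 genes with the largest rises as log2(CPM + 0.5) in each mouse (points, 8 a time) against time after sham surgery, with the median as a line. Arg1, Chil3, Ccr2 and Itgax were near their 0 min level at 45 min and high at 24 h, whereas Actg1 had its lowest median at 45 min.

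The promoters of Mmp3 and Ppbp are printed because both hold an AP-1 match, the site bound by Fos and Jun proteins. AP-1 and, in Ppbp, serum response element matches are in capitals. The Mmp3 window is chr9:7445572-7445821 and the Ppbp window is chr5:90768268-90768517, both on the plus strand.
Mmp3: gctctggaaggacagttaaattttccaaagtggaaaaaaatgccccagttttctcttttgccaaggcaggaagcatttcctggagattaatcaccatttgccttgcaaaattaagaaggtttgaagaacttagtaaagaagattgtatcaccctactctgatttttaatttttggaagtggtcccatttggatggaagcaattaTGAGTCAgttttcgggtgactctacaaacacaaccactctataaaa
Ppbp: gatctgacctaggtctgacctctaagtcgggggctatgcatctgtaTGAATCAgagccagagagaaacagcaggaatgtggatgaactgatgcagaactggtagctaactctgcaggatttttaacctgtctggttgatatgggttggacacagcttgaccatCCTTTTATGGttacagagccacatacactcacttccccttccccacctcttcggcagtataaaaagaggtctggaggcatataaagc
The AP-1 match lay 46 bases before the start in Mmp3 and 204 before it in Ppbp. The promoters of Arg1, Cxcl5, Cdo1 and Prg4 were not searched. Of the 8 promoter windows matched for the largest rises, 3 held an AP-1 match (Itgax was the third; 6.75% of all RefSeq windows). A serum response element was held by 2 (Actg1 and Ppbp, 1.47% of all windows) and a STAT match by 1 (Chil3, 7.02%). An NF-kB match or a cAMP response element was held by 0.

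The 19 gene lists that follow group the transcripts by role. The counts of each list are to be read against the shares among all tested transcripts with a symbol. Of the 16 immediate early transcription factors tested, 8 were lower and 4 higher at 24 h, against 31.3% lower and 33.5% higher among all transcripts with a symbol, and their median log2 fold change was -0.89. Without the 4 libraries, 4 of these 8 and all 4 of these 4 passed again, and with the covariate 5 of the 8. Fos, the partner of Jun in AP-1, ranged from 11.5 to 201 CPM at 45 min, with a median of 103, and from 5.91 to 27.7 CPM at 24 h, with a median of 13.6. Its log2 fold change was -2.68 ± 0.47 (SE, edgeR, adjusted p = 0.000402). The orphan nuclear receptors Nr4a1 and Nr4a3 fell by 1.64 and 1.62 on the log2 scale (adjusted p = 0.00571 and 0.008, edgeR), Nr4a1 to a level also under that of 0 min (log2 fold change -1.29, adjusted p = 0.0299). Without the 4 libraries Nr4a1 had an adjusted p of 0.0612. Cebpb, Cebpd and Btg2, named here with their values seen, likewise did not pass without those libraries (adjusted p = 0.181, 0.361 and 0.208), whereas Fosb, Egr1, Fos and Nr4a3 did.

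The list did not move as 1 block. Klf4, a zinc finger factor of endothelium and smooth muscle, had a median of 68.2 CPM before the early response, of 34.3 at 45 min and of 74.2 the next day. The log2 fold change of 24 h over 45 min was 0.95 ± 0.21 (SE, edgeR, adjusted p = 0.00494). Ets2 had medians of 173, 132 and 185 CPM and a log2 fold change of 0.49 (adjusted p = 0.00268, edgeR). Snai1, a repressor that acts in epithelial-mesenchymal transition, and Ier3 rose by 1.22 and 0.61. Junb differed by -0.86 (adjusted p = 0.0836), Klf10 by 0.57 (adjusted p = 0.119) and Klf2 by 0.35 (adjusted p = 0.416). The summed level of the list had a median of 1230 CPM at 45 min and ran from 599 to 1825 CPM, with sample 7 at the top. At 24 h it ran only from 608 to 796 CPM, within the range of 0 min (599 to 1199 CPM).

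Of 19 feedback inhibitors and stress genes, 9 were lower and 8 higher at 24 h, 7 and 6 of them also without the 4 libraries. The growth arrest genes Gadd45b and Gadd45g, which activate stress kinases, fell by 2.24 ± 0.36 and 1.9 ± 0.39 on the log2 scale (adjusted p = 0.000154 and 0.00251, edgeR). Gadd45b had a median of 36.3 CPM (range 21 to 76.5) at 45 min and 7.46 CPM (range 3.48 to 23.5) at 24 h. Ddit4, an inhibitor of the growth kinase mTORC1, fell from a median of 177 CPM to 53.9 CPM, a log2 fold change of -1.61 ± 0.27 (adjusted p = 0.000244, edgeR). All 3 returned to a level that did not differ from 0 min past the threshold (log2 fold changes of 0.36, 0.28 and -0.32).

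Socs3, the inhibitor induced by IL-6 family cytokines, stayed higher. Its medians were 59.2 CPM at 45 min (range 16.8 to 159) and 28.2 CPM at 24 h (range 8.01 to 60.8), and its log2 fold change of -1.28 ± 0.40 barely passed (adjusted p = 0.0435, edgeR). It was lost in 11 of the 16 fits that left out 1 mouse, and its adjusted p was 0.291 without the 4 libraries and 0.36 with the covariate. Against 0 min it was higher by 3.62 log2 units at 45 min and by 2.34 at 24 h (adjusted p = 3.08e-05 and 0.000598, edgeR). Nfkbia, the inhibitor of NF-kB, which was named after its values were seen, fell by 1.07 ± 0.18 to its 0 min level (adjusted p = 0.000241, edgeR). Dusp1, a phosphatase of stress kinases, differed by -0.13 (adjusted p = 0.785).

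Of 16 chemokine and receptor transcripts tested, 10 were higher and 2, Cxcl9 and Cxcl1, lower at 24 h, 9 and 2 of them also without the 4 libraries. Ccl6, a macrophage chemokine, rose from a median of 26.7 CPM (range 11.5 to 59.7) to 164 CPM (range 42.7 to 238), a log2 fold change of 2.29 ± 0.35 (adjusted p = 0.00012, edgeR). The monocyte chemokines Ccl2 and Ccl7, named after their values were seen, had been higher at 45 min than at 0 min, by 2.26 and 2.15 log2 units (adjusted p = 0.0118 and 0.0217, edgeR). They rose by a further 1.45 and 1.70 by 24 h (adjusted p = 0.0321 and 0.012). The ligands of this list thus had different orders: Cxcl1 was highest at 45 min, Cxcl5, Ccl2 and Ccl7 were above 0 min at 45 min and higher again at 24 h, and Ccl6 differed from 0 min by 0.61 log2 units at 45 min, which did not pass (adjusted p = 0.948). Too few counts kept 5 transcripts from the test. Of these, Cxcl3, a close relative of Cxcl1, had 7 counts in the 45 min hearts together and 525 in the 24 h hearts, where it ranged from 7 to 136, whereas Cxcl2 had 33 and 59. The summed level of the list was highest in 24 h sample 4, at 787 CPM, and lowest at 24 h in sample 8, at 141 CPM.

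Genes of the activated endothelium gave few calls. Of 10 tested, 1, P-selectin (Selp), which tethers leukocytes to the vessel wall, was higher, and 1, Sema7a, lower. Selp ranged from 0.794 to 3.24 CPM at 45 min and from 1.21 to 14 CPM at 24 h, a log2 fold change of 1.78 ± 0.39 (SE, edgeR, adjusted p = 0.00397). Its level had already been higher at 45 min than at 0 min, by 2.27 log2 units (adjusted p = 0.0138). Sema7a differed by -0.43 (adjusted p = 0.0324) and did not pass without the 4 libraries (adjusted p = 0.137). E-selectin (Sele) and Icam1, which had been higher at 45 min than at 0 min (2.23 and 1.25 log2 units, adjusted p = 0.00101 and 0.00301, edgeR), differed by -0.80 and -0.56 at 24 h and did not pass the threshold (adjusted p = 0.137 and 0.114). Prostaglandin synthase Ptgs2 differed by 0.13 (adjusted p = 0.862).

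Of 11 neutrophil markers tested, 7 were higher and 0 lower at 24 h, 6 of the 7 also without the 4 libraries. Mmp9, the neutrophil gelatinase, ranged from 0.794 to 11.6 CPM at 45 min and from 5.26 to 39.3 CPM at 24 h, a log2 fold change of 1.82 ± 0.43 (SE, edgeR, adjusted p = 0.00706). Fgr, a myeloid kinase, and Slfn1 rose by 2.41 ± 0.51 and 1.89 ± 0.48 (adjusted p = 0.00288 and 0.0127, edgeR). Cxcr2, the receptor of Cxcl1 and Cxcl5, rose by 1.79 ± 0.48 (adjusted p = 0.0191), with an adjusted p of 0.0534 without the 4 libraries. Haptoglobin (Hp), which neutrophils and liver make, rested on 1 heart: sample 4 had 165 CPM at 24 h and the others between 1.86 and 13.2 CPM, and without that sample the adjusted p was 0.0912. Sample 4 had the highest summed level of the list, 221 CPM, against 19.4 to 116 CPM in the other 24 h hearts and 13 to 44.3 CPM at 45 min. Hp is itself a member and gave most of that sum, so that sample 4 was not the highest without it. The groups overlapped, since samples 8 and 1 had 19.4 and 25.1 CPM at 24 h.

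Of 29 monocyte and macrophage transcripts, 18 were higher and 0 lower at 24 h, 17 of them also without the 4 libraries, and the median log2 fold change was 1.45. Besides Arg1, Chil3 and Ccr2, the largest rises were those of Plac8, a marker of recruited monocytes, with 3.25 ± 0.62 (SE, edgeR, adjusted p = 0.00109), and Gpnmb, a glycoprotein of phagocytes, with 2.95 ± 0.47 (adjusted p = 0.000139). Plac8 overlapped between the groups, from 0.142 to 0.852 CPM at 45 min and from 0.162 to 11.5 CPM at 24 h. Lyve1, found on macrophages that reside in the heart but not only on them, ranged from 20.6 to 46.9 CPM at 45 min and from 26.5 to 53.0 CPM at 24 h. This difference of 0.29 did not pass (adjusted p = 0.266, edgeR). The mannose receptor Mrc1 rose by 0.99 ± 0.21 (adjusted p = 0.00321, edgeR). Which cells gave these levels was not tested. Cd68, of the lysosomes of macrophages in general, rose by 1.47 (adjusted p = 0.0208); these 3 were named after their values were seen. The summed level of the list ran from 176 to 324 CPM at 45 min and from 278 to 851 CPM at 24 h, with samples 8 and 1 at 278 and 327 CPM and sample 3 at the top. With too few counts to test, Marco had 9 and 104 counts in the 8 hearts of each time, and Cd5l 3 and 293.

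Acute phase, metal and haem genes rose in most cases. Of 18 tested, 15 were higher and 0 lower at 24 h, 12 of the 15 also without the 4 libraries and all 15 with the covariate. Lrg1, a secreted leucine-rich glycoprotein, rose from a median of 81.9 CPM (range 58.6 to 214) to 504 CPM (range 121 to 689), a log2 fold change of 2.07 ± 0.35 (adjusted p = 0.000303, edgeR). Serpina3i, a neighbour of Serpina3n in the same gene cluster, rose by 2.33 ± 0.44 (adjusted p = 0.00102, edgeR), although reads of so similar genes can be misassigned. Haem oxygenase Hmox1 and the metallothionein Mt2, named after their values were seen, rose by 1.84 ± 0.33 and 1.42 ± 0.37 (adjusted p = 0.000477 and 0.0139, edgeR). Mt2 was already higher at 45 min than at 0 min, by 2.08 log2 units (adjusted p = 0.00333), whereas Mt1 differed by -0.99 between 24 h and 45 min (adjusted p = 0.17). The summed level of the list ran from 238 to 617 CPM at 45 min and from 698 to 2449 CPM at 24 h and did not overlap. The 3 highest 45 min hearts were samples 6, 7 and 8, and 24 h sample 8 stood far under the next lowest, at 698 against 1737 CPM.

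**Figure D3:**
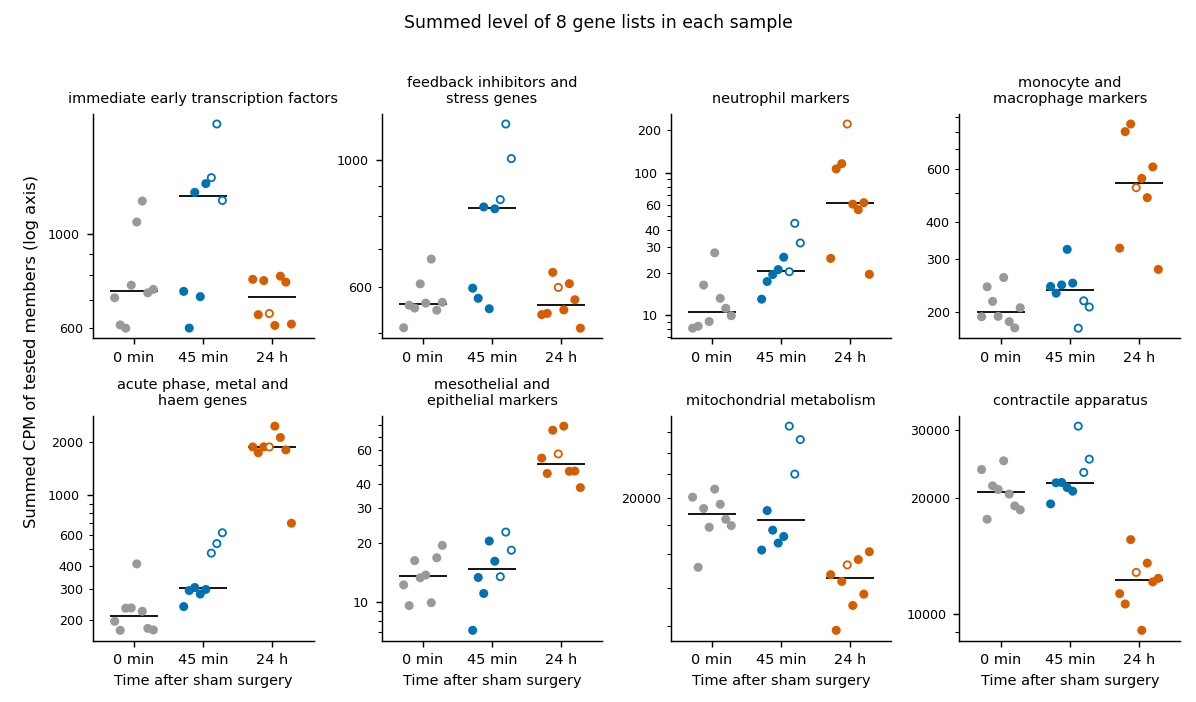
Summed CPM of the tested members of 8 gene lists (log axis) in each mouse (points, 8 a time; lines are medians) against time after sham surgery, with open circles for 45 min samples 6, 7 and 8 and 24 h sample 4. Of the 3 times sampled, the immediate early list had its highest median at 45 min, 1230 CPM, with ranges that overlapped. The acute phase list rose to 698 to 2449 CPM at 24 h. The contractile sum, most of it Actc1 at 45 min, fell to 9099 to 15616 CPM, and nearly all of its fall was that of Actc1.

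Of 31 extracellular matrix genes, 13 were higher and 8 lower at 24 h, against 33.5% and 31.3% of all transcripts with a symbol. Without the 4 libraries, 7 of the 13 and 7 of the 8 passed again. Beside Mmp3 and Prg4, Has2, a hyaluronan synthase, rose from a median of 0.561 CPM to 2.54 CPM, a log2 fold change of 2.2 ± 0.35 (adjusted p = 0.000134, edgeR). Has1, which was 0.05 apart between 45 min and 24 h (adjusted p = 0.956), had already been higher at 45 min than at 0 min by 5.49 log2 units (adjusted p = 7.29e-05, edgeR). Of the 2 hyaluronan synthases, Has2 thus passed the threshold between 45 min and 24 h and Has1 did not. Cyr61, a matrix-associated early gene, fell by 1.66 ± 0.33 from a median of 237 CPM (range 104 to 467) to 68.5 CPM (range 46.3 to 215; adjusted p = 0.00191, edgeR). Its relative Ctgf differed by 0.55 (adjusted p = 0.196) and had passed the test against 0 min (0.88, adjusted p = 0.035). Fmod, a collagen-binding proteoglycan, fell by 1.57 ± 0.40 (adjusted p = 0.0131), with an adjusted p of 0.065 without the 4 libraries. The fibrillar collagens Col3a1 and Col1a2, named after their values were seen, were higher by 0.83 and 0.52 (adjusted p = 0.0184 and 0.0365), and neither passed without the 4 libraries (0.104 and 0.121). Tenascin C (Tnc), too low to test, had 24 counts at 45 min and 533 at 24 h, 208 of them in 1 heart.

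The surface of the heart is covered by mesothelium, and of 8 mesothelial and epithelial markers tested 6 were higher and 0 lower at 24 h, 5 of the 6 also without the 4 libraries. Krt8, a keratin, ranged from 0.164 to 2.40 CPM at 45 min and from 2.03 to 14.3 CPM at 24 h, a log2 fold change of 3.25 ± 0.48 (SE, edgeR, adjusted p = 7.59e-05). Its partner Krt18 and Krt7 rose by 1.68 ± 0.40 and 2.19 ± 0.55 (adjusted p = 0.008 and 0.0115, edgeR). Aldh1a2, which makes retinoic acid in the epicardium, rose from a median of 6.82 CPM to 27.2 CPM, a log2 fold change of 1.91 ± 0.27 (adjusted p = 3.68e-05, edgeR). Upk1b, a tetraspanin, rose by 2.21 ± 0.57 (adjusted p = 0.0137). The summed level of the list ran from 7.14 to 22.7 CPM at 45 min and from 38.4 to 79.1 CPM at 24 h, without overlap, and the 0 min range was 9.56 to 19.4 CPM.

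Of 38 genes of mitochondrial metabolism, 25 were lower and 1 higher at 24 h, with a median log2 fold change of -0.56. The number of calls changed with the libraries used. Without 45 min samples 6, 7 and 8 and 24 h sample 4, 8 of the 25 passed again and the median was -0.41, with the covariate 14 passed again, and without 24 h sample 4 alone 31 members were lower. Mtfp1, a regulator of mitochondrial fission, ranged from 114 to 413 CPM at 45 min and from 59.6 to 189 CPM at 24 h, a log2 fold change of -1.27 ± 0.28 (SE, edgeR, adjusted p = 0.00464 with all samples and 0.002 without the 4). Coq10a, a coenzyme Q chaperone, and Ppif, the cyclophilin of the permeability transition, were lower by 1.02 and 0.99 log2 units (adjusted p = 0.00694 and 0.0181), and their adjusted p without the 4 libraries were 0.0504 and 0.0944. Ndufaf3, an assembly factor of complex I, lost its call in 10 of the 16 fits that left out 1 mouse. Slc25a42, a carrier of coenzyme A, was the 1 that rose, by 1.14 ± 0.30 (adjusted p = 0.0155), back to its 0 min mean (1.80, 0.890 and 1.96 CPM at the 3 times in order). The summed level of the list ran from 16263 to 26661 CPM at 45 min, with samples 6 and 8 at the top, and from 11806 to 16154 CPM at 24 h and did not overlap.

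Of 13 genes of mitochondrial translation, 9 were lower and 0 higher, 4 of the 9 also without the 4 libraries, and 12 were lower without 24 h sample 4 alone. The median log2 fold change was -0.65 with all samples and -0.37 without the 4. Qrsl1, a subunit of the amidotransferase that makes glutaminyl-tRNA, fell from a median of 13.3 CPM (range 10.2 to 16.4) to 8.08 CPM (range 5.99 to 9.96), a log2 fold change of -0.69 ± 0.12 (adjusted p = 0.000542, edgeR). Mrpl18, a mitochondrial ribosomal protein, fell by 0.67 ± 0.13 (adjusted p = 0.00111, edgeR) in all samples and passed again without the 4 (adjusted p = 0.00232), whereas Mrps9 did not (0.00632 and 0.0884). Sars2 and Mrpl37 each lost their calls in 10 of 16 fits.

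Of 18 fatty acid and ketone genes, 5 were higher and 3 lower, shares under those of all transcripts with a symbol, and 3 and 3 of them passed also without the 4 libraries. Acot1, a thioesterase, and Plin2, of the lipid droplet coat, rose by 1.47 ± 0.33 and 0.98 ± 0.22 (adjusted p = 0.00525 and 0.00464, edgeR). Thrsp, a lipogenic factor, and Tecr, of fatty acid elongation, fell by 1.35 and 1.13 (adjusted p = 0.00324 and 0.00288, edgeR).

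Most contractile genes that passed the threshold were lower. Of 24 contractile genes, 11 were lower and 6 higher, 10 of the 11 and 3 of the 6 also without the 4 libraries. Actc1, the alpha actin of the heart, ranged from 12704 to 23540 CPM at 45 min and from 3401 to 7810 CPM at 24 h, a log2 fold change of -1.53 ± 0.18 (SE, edgeR, adjusted p = 3.44e-06). Its 0 min mean, 14854 CPM, was close to the 45 min mean, and every 24 h heart lay under every earlier heart. Actc1 made up most of the summed level of the list at 45 min and nearly all of the fall of that sum. Mylk4, a myosin light chain kinase of muscle, ranged from 116 to 384 CPM and from 52.0 to 105 CPM, a log2 fold change of -1.63 ± 0.23 (adjusted p = 3.97e-05, edgeR). Ankrd2, which responds to stretch, rose from a median of 0.467 CPM to 2.61 CPM, a log2 fold change of 2.64 ± 0.47 (adjusted p = 0.000447, edgeR). The Tpm1 transcript on the list had means of 8.85, 2.19 and 9.95 CPM at the 3 times in order, the same dip as the Actg1 transcript, and 24 h stood 2.18 ± 0.27 above 45 min (adjusted p = 6.04e-06, edgeR). It is 1 of many isoforms of tropomyosin 1, and how the counting shared reads between isoforms is not given in the sources used here.

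Of 24 genes of cardiac excitation and calcium handling, 12 were lower and 3 higher at 24 h, 8 of the 12 and all 3 also without the 4 libraries. Hcn2, a pacemaker channel, ranged from 47.3 to 106 CPM at 45 min and from 16.4 to 41.4 CPM at 24 h, without overlap, a log2 fold change of -1.34 ± 0.23 (SE, edgeR, adjusted p = 0.000402). Casq1, a calcium-binding protein of the sarcoplasmic reticulum, fell by 1.08 ± 0.28 (adjusted p = 0.014), with an adjusted p of 0.192 without the 4 libraries. The rises were those of Tmem38b, an intracellular cation channel, of Grk5, a kinase that desensitizes beta receptors, and of Kcne4, a potassium channel subunit. Tmem38b ranged from 16.7 to 37.7 CPM and from 44.8 to 73.8 CPM, a log2 fold change of 1.22 ± 0.15 (adjusted p = 8.06e-06, edgeR), and Grk5 rose by 1.09 ± 0.15 (adjusted p = 3.54e-05, edgeR) and Kcne4 by 1.03 ± 0.24 (adjusted p = 0.00657).

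**Figure D4:**
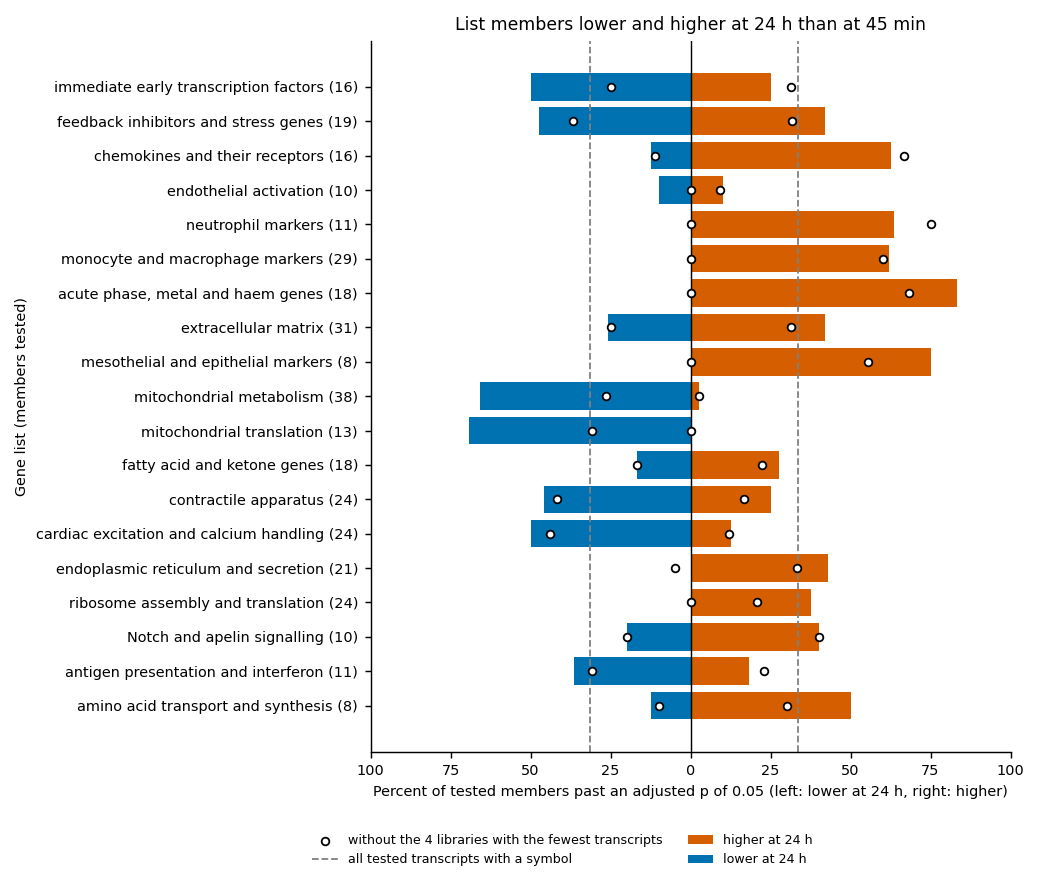
Share of tested members past the threshold in each of the 19 gene lists (axis in percent; blue to the left for lower and orange to the right for higher at 24 h), with open circles for the fit without 45 min samples 6, 7 and 8 and 24 h sample 4 and dashed lines for all transcripts with a symbol (31.3% and 33.5%). The dashed lines belong to the fit of all samples. The blue bars of the mitochondrial lists stand for 25 of 38 and 9 of 13 members and their circles for 10 of 38 and 4 of 13.

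Of the lists of protein synthesis, most members did not pass the threshold. Of 21 transcripts of the endoplasmic reticulum and secretion, 9 were higher and 0 lower at 24 h, 6 of the 9 also without the 4 libraries. Serp1, which guards nascent membrane proteins, ranged from 14.9 to 30.1 CPM at 45 min and from 37.4 to 57.5 CPM at 24 h, a log2 fold change of 0.85 ± 0.14 (SE, edgeR, adjusted p = 0.000238). Sdf2l1, Spcs3 and Pdia4, of chaperoning, signal peptide cleavage and disulfide formation, rose by 1.15, 0.98 and 0.87 (adjusted p = 0.0103, 0.000801 and 0.00264, edgeR). Pdia5 lost its call in 12 of 16 fits. Of 24 genes of ribosome assembly and translation, 9 were higher and 0 lower, close to the 33.5% of all transcripts with a symbol, and 3 of the 9 passed again without the 4 libraries. Eif1a, an initiation factor, rose by 0.96 ± 0.19 (adjusted p = 0.00168, edgeR) and ranged from 6.15 to 12.6 CPM and from 12.8 to 21.5 CPM, without overlap. Rrp12 and Wdr46, of ribosome maturation, rose by 0.61 and 0.64 (adjusted p = 0.0101 and 0.00636), with an adjusted p of 0.0915 and 0.0635 without the 4 libraries.

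Notch signalling lets vascular cells instruct their neighbours, and its target Hey1 and ligand Dll1 were lower at 45 min than at both other times. Of 10 genes of the Notch and apelin list, 4 were higher and 2 lower at 24 h, against 33.5% and 31.3% of all transcripts with a symbol. All 6 passed again with the covariate and without the 4 libraries. Hey1, a Notch target, had means of 12.6, 6.51 and 13 CPM at the 3 times in order. Its log2 fold change was 0.99 ± 0.15 at 24 h against 45 min (adjusted p = 0.000123, edgeR) and -0.95 at 45 min against 0 min (adjusted p = 0.000961). The ligand Dll1 gave 8.90, 5.01 and 9.57 CPM, and a log2 fold change of 0.93 ± 0.15 (adjusted p = 0.000187, edgeR), without overlap between 45 min (4.00 to 5.84 CPM) and 24 h (7.72 to 12.7 CPM). The ligand Jag1 rose by 1.01 ± 0.20 (adjusted p = 0.00154, edgeR). The apelin receptor Aplnr was lower at 24 h together with Apln, by 0.63 log2 units (adjusted p = 0.0289).

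Of 11 genes of antigen presentation and interferon, 2 were higher and 4 lower at 24 h, against 33.5% and 31.3% of all transcripts with a symbol. Without the 4 libraries, 1 and 4 of them passed again, but 1 of the 4 lower ones when 45 min samples 6, 7 and 8 alone were left out. Those 3 samples had summed levels of 694 to 862 CPM against 396 to 458 CPM in the other 45 min hearts. Cd74, the invariant chain of MHC class II, ranged from 4.77 to 13.2 CPM at 45 min and from 2.05 to 5.62 CPM at 24 h, a log2 fold change of -1.30 ± 0.28 (SE, edgeR, adjusted p = 0.00304). The class II chain H2-Aa fell with it, by 1.20 ± 0.32 (adjusted p = 0.0164), and Ifngr2, a chain of the interferon-gamma receptor, by 1.05 ± 0.20 (adjusted p = 0.00137). Zbp1, a sensor of nucleic acids, rose by 1.26 ± 0.36 (adjusted p = 0.025). Of 8 genes of amino acid transport and synthesis, 4 were higher and 1, Chac1, lower, 2 and 1 of them also without the 4 libraries. Slc7a8, a carrier of neutral amino acids, rose by 1.33 ± 0.27 and Slc6a6, the taurine carrier, by 1.01 ± 0.20 (adjusted p = 0.00185 and 0.00136, edgeR), Slc6a6 from a median of 166 CPM to 295 CPM.

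**Figure D5:**
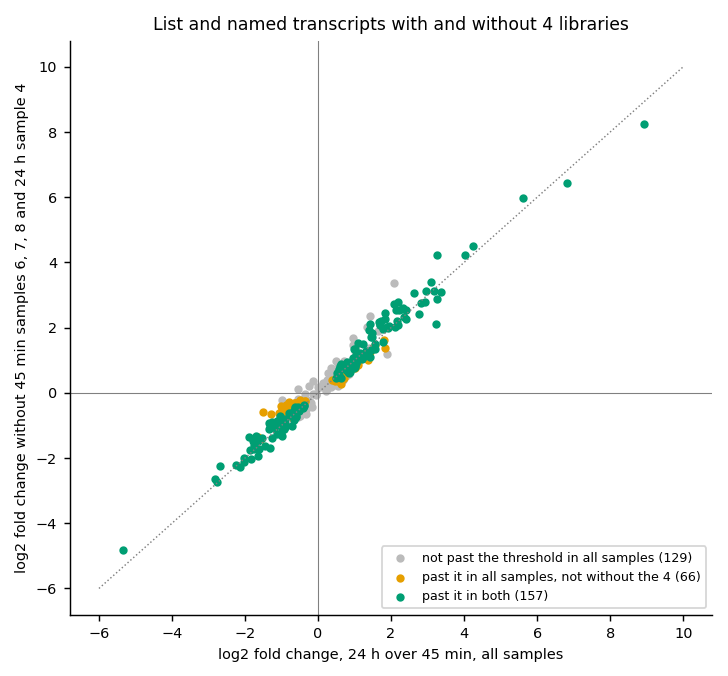
Log2 fold change of 24 h over 45 min for 352 list and named transcripts, with all samples (x axis) and without 45 min samples 6, 7 and 8 and 24 h sample 4 (y axis); the dotted line marks equal values. Of the 223 past the threshold with all samples, 157 passed it again and 66 did not, and 0 of the 223 changed sign.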

How the data were processed

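Left ventricle RNA of 24 mice was sequenced, 8 at each of the 3 times after sham surgery. Per the labels and the study's methods, the authors trimmed single-end reads with cutadapt 1.9.1, mapped them to mm10 with TopHat2 2.1.0 and Bowtie2 2.2.9, and deposited raw counts per UCSC transcript made with HTSeq 0.6.0. Counting mode, strand setting and release of the UCSC list are not given in the sources used here, so reads of overlapping transcripts may be split or lost. Which surgeon operated and which pool a library belonged to were not analysed here.

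From the counts, 8940 of 63758 transcripts passed a minimum count of 10 (filterByExpr) and were fitted over all 24 samples with edgeR 4.0.16 (TMM factors, quasi-likelihood test, R 4.3.3), with Benjamini-Hochberg adjustment over all of them and a threshold of 0.05. CPM were computed with the TMM-scaled totals. Symbols came from the study's table of 1208 transcripts that it selected in these samples. The gene lists and the samples were chosen with earlier results of these data known. Named genes were the 5 largest called changes of each list and the 12 largest rises and falls that were called, averaged 10 counts or more at the higher time and did not overlap between the times. A simulation of 200 transcripts changed 2-fold recovered 67.5% of them, with 2.88% of its calls false (8613 transcripts run). The 200 were drawn from transcripts with more counts, and the simulated noise was independent between transcripts, without a shift shared by some libraries. These shares are therefore not the error and recovery rates of the real data. Samples of 1 group differed by more than counting noise in all 56 pairs. Each sample is a separate mouse, and same-numbered samples of different times did not pair (correlations of -0.45 to 0.43 over 8 numbers). Alternatives were RLE and upper quartile factors, DESeq2 1.42.0, limma-voom 3.58.1, other filters and thresholds, the 16 samples alone, transcript detection per library as a covariate, a replicate block and each sample left out. Leaving out the 4 libraries with few transcripts was chosen after seeing the data. Positions are from GENCODE M21 and promoters from RefSeq (both GRCm38). Counting intervals are not given, since the spread between mice exceeded counting error.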

Additional observations from a re-analysis of the deposited data

Results flagged for a closer look

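In 98 named transcripts, on the log2(CPM + 0.5) scale, and in the number of transcripts detected, the highest and the lowest sample of 45 min and of 24 h were set against the other 7. In 13 of these 198 groups, all of them transcripts, that sample lay apart by more than a Dixon test at the 5% level allows. At that level about 1 group in 20 would be flagged if the groups were independent. Transcripts of 1 mouse are not independent, so the number found was not tested against chance. All values are CPM.

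At 24 h, sample 8 was the lowest for 2 acute phase genes, Serpina3n at 176 (next 382) and Lrg1 at 121 (next 427). Sample 4 was the highest for Hp at 165 (next 13.2) and for Mtfp1 at 189 (next 86.3), and the lowest for Ddx21 at 50.6 (next 76.8) and for Jag1 at 12.2 (next 23.5); it was also the 24 h sample with the fewest transcripts detected. Sample 3 was the lowest for Cdo1 at 1.93 (next 4.56).

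At 45 min, sample 4 was the highest for Arg1 at 0.767 (next 0.0992), and sample 8 was the highest for Ankrd2 at 1.57 (next 0.521). Sample 2 was the lowest for Cxcl9 at 5.62 (next 11.8), and sample 1 was the lowest for Fmod at 0.794 (next 4.64). Sample 6 was the lowest for Serp1 at 14.9 (next 24.4) and Wdr46 at 6.38 (next 9.40). Without 24 h sample 4 the rise of Hp did not pass the threshold (adjusted p = 0.0912, edgeR).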

How the results depend on the processing

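The calls of the 12 largest rises and the 12 largest falls kept their direction and their side of the threshold wherever they were tested. They had been picked as large, called and without overlap, which made this outcome likely in advance. With a minimum count of 50, 14 of the 24 were tested, and in the 16 samples alone 23. The counts of all transcripts (410 higher and 403 lower) moved more. They were 377 and 434 with RLE factors, 382 and 426 with upper quartile factors, 516 and 604 with DESeq2, 403 and 355 with limma-voom and 516 and 444 with transcript detection per library as a covariate. No filter gave 323 and 239, with 27661 transcripts tested, the 16 samples alone 297 and 268, a threshold of 0.01 185 and 169, and omission of 45 min samples 6, 7 and 8 gave 332 and 266; apart from the stricter threshold and the larger number tested, the cause was not tested. Leaving out 1 mouse at a time gave 252 to 568 higher and 272 to 1100 lower transcripts. The fewest higher transcripts, 252, came without 24 h replicate 2, and the most lower ones, 1100, without 24 h replicate 4. The replicate block gave 335 higher and 321 lower transcripts, but same-numbered samples are different mice and 1 of 8 numbers correlated best with itself. The difference in detected transcripts, 1609 at 1 count (p = 0.0775), was 1629 after thinning to equal totals (p = 0.0575) and 666 at 10 counts (p = 0.0236, all exact permutation tests). Over all alternatives, the fold changes of the named and list transcripts stayed on their side of the threshold in 9237 instances, fell short of it in 908 and newly passed it in 329, and no change that passed the threshold in either fit turned its direction. Of the 352 transcripts, 4 that did not pass it (Timp4, Dll4, Dusp1 and Adora2b) had the opposite sign without the 4 libraries. Transcripts under the count filter, among them Cxcl3 and Tnc, are given as counts only.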

Other observations

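Other transcripts of the lists had too few counts to be tested and are given as counts in the 8 hearts of each time. Cdh1 (E-cadherin, of epithelial junctions) had 0 at 0 min, 1 at 45 min and 85 at 24 h, where it ranged from 3 to 26. Krt19, a keratin of simple epithelia, had 36, 29 and 167. Irg1, which makes itaconate in activated macrophages, had 12, 39 and 250, with 122 of the last in 1 heart. Oas3, an interferon-induced enzyme, had 34, 32 and 252, and Slc7a11, the cystine carrier, had 12, 19 and 106. The neutrophil transcripts Mcemp1, Asprv1 and Il1f9 had 28, 36 and 26 counts at 45 min and 156, 108 and 124 at 24 h. In the other direction, Kcnj11, a subunit of the ATP-sensitive potassium channel, had 72, 59 and 34, and Tnni3k, a kinase of heart muscle, had 91, 75 and 33.

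The share of all counts held by the transcript with the widest range, uc012ath.2, which has no symbol in the study's table, ran from 2.72% to 35.2% at 45 min and from 0.997% to 20.5% at 24 h and did not differ past the threshold between the times (p = 0.721, exact permutation test). Leaving it out of the counts gave 388 higher and 429 lower transcripts.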
